A study of Arabidopsis thaliana with 12 samples.

Results

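The 3' splice site tables of this series listed junctions that end inside an annotated exon instead of at its edge. Member exons were those with at least 10 junction reads in at least 1 of the 6 libraries of a table, counted once per gene, chromosome, exon start and exon end. They numbered 445 of 3480 listed exons, lay in 368 genes and carried 411 distinct junctions. Any junction read at all was listed for 467 exons. The members were thus chosen by their counts of junction reads, so those counts are given as a description with no test. Some exons share a junction, and 31 junctions were carried by more than 1 member exon. Among exons just inside the limit, 3 had a highest library of exactly 10 reads, and 22 exons just outside it had a highest library of 6 to 9.

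The samples were 12 libraries of polyadenylated RNA from germinating seeds of Arabidopsis thaliana, in 4 groups of 3. The groups were heated atcyp18-1, heated wild type (WT), unheated atcyp18-1 and unheated WT. The mutant is affected in CYP18-1, which encodes a cyclophilin. All seeds were kept at 4 °C for 2 days and sampled 1 day after imbibition, and the heated ones had 2 h at 45 °C. A single mutant line is named, with no further detail of the allele in the labels. Whether libraries within a group are separate batches of seed is not stated, so p-values measure only how these samples vary, and that variation may be technical. Gene counts summed to between 7468922 and 10506481 per library. Counts of CYP18-1 were 15 to 33 in the 6 atcyp18-1 libraries, against 213 to 259 in the 6 WT libraries. All 10 seed storage and oleosin markers were detected, and together they held 0.64 to 0.96% of counts in atcyp18-1 libraries, against 0.27 to 0.54% in WT libraries. In such bulk samples fewer cells of a type and less RNA per cell cannot be told apart.

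An intron ends at its 3' splice site, or acceptor, with the bases AG, usually after a stretch rich in pyrimidines. The U2AF heterodimer binds that stretch and the AG, and later steps of the spliceosome choose which AG is joined to the upstream exon. When several AGs compete, a gene can yield exons of different length; AGs 3 bases apart are the closest such pairs and are called NAGNAG acceptors. An intron starts at the 5' splice site, or donor, usually with GT.

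The label of these tables was checked against the annotation of TAIR10.1, since the files' own build is not given in the sources used here. Of the 445 member exons, 444 were annotated there, and the leading junction (the one with most reads) was an annotated intron for 415. In 217 of 218 members on plus-strand genes and in 225 of 225 on minus-strand genes, the junction's lower coordinate lay inside the exon, as it did in the 2 others, of organelle genes. That end is an acceptor only on the minus strand. By strand and the junction's splice signal, 213 members in 176 genes were acceptor-side, and 201 members in 167 genes were donor-side. Not every exon end among the acceptor-side members had an AG of its own. A further 24 members in 20 genes carried the splice signals of the opposite strand, and 7 were unclear. Of the acceptor-side junctions, 212 of 213 ran from GT to AG, and of the donor-side junctions 193 of 201 did, the other 8 starting with GC. In each case the junction left the exon shorter than the listed one.

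The sites with most reads among the closest pairs show the alternatives directly. Each sequence below is from the TAIR10.1 genome, written 5' to 3' on the gene's strand. In the acceptor pairs the first AG in capitals is the listed exon's own site and the second is the one the junction used. In the donor pairs the first GT is the one the junction used and the second is the listed exon's own. AT1G18070, a translation elongation factor family gene, has its pair in the 3' UTR at chr1:6214105-6214131 (minus strand). emb1138, a chloroplast DEAD-box RNA helicase, lies at chr5:9285610-9285636 (minus). NRP2, a NAP1-related histone chaperone, lies at chr1:6481942-6481968 (minus). CRU3, the seed storage protein cruciferin 3, lies at chr4:14088985-14089006 (plus). XTH9, a xyloglucan endotransglucosylase/hydrolase of the cell wall, lies at chr4:1416183-1416204 (plus).
AT1G18070: ttctgtttctttggaaAGcAGgagacg
emb1138: attgatgcctttaaacAGaAGttttgg
NRP2: cggaaattcgtcttgtAGcAGgttgca
CRU3: tccagggtGTaaGTacattttt
XTH9: ttactctgGTaaGTagatgaag

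Acceptor-side members were most often 3 bases apart and donor-side members 4 bases apart. The distance between the exon's own site and the junction's site was 3 bases in 38 of 213 acceptor-side members (17.8%) and 4 bases in 7. On the donor side it was 4 bases in 22 of 201 (10.9%), with GT at both sites in 17, and 3 bases in 3. Among neighbouring annotated acceptors of a gene that share a donor, 13.1% of 5029 pairs were 3 bases apart. Among neighbouring annotated donors that share an acceptor, 4.2% of 4312 pairs were 4 bases apart. Members are exons, some of which share a junction, and some acceptor-side exon ends have no AG. The shares are therefore not of like units. The median distance was 29 bases on the acceptor side, with the longest at 1339, and 75 bases on the donor side, with the longest at 1457.

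**Figure D1:**
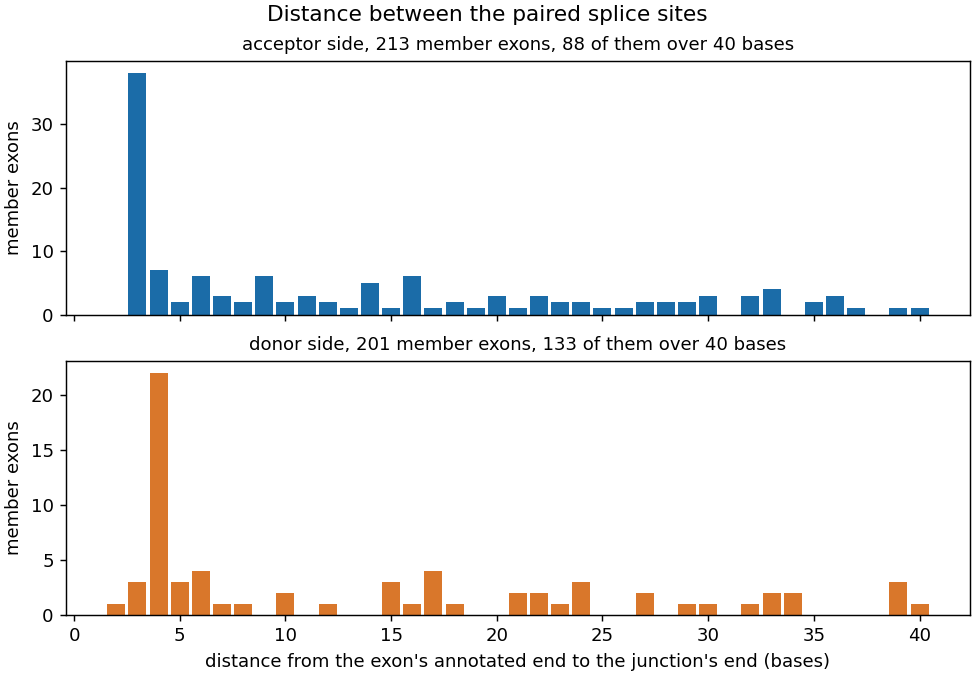
Number of member exons (y axis) at each distance in bases between the listed exon's own end and the junction's site (x axis, up to 40 bases). Acceptor-side members are above and donor-side members below. The tallest bar stands at 3 bases with 38 exons on the acceptor side and at 4 bases with 22 exons on the donor side.

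The stretch between the paired sites fell in coding sequence for 90 of 213 acceptor-side members, in the 5' UTR for 85, across coding sequence and a UTR for 30 and in the 3' UTR for 8. Of the 90 coding stretches, 60 (66.7%) were a multiple of 3 bases long and kept the reading frame. On the donor side 33 of 66 coding stretches did.

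The junction acceptors ended in CAG more often than the sequence at the exons' own ends did. All 34 distinct NAGNAG junctions had AG at both sites, and the downstream triplet, which the junction used, was CAG in 27, TAG in 4, AAG in 3 and GAG in 0. The upstream triplet of the same pairs was CAG in 12, TAG in 13, AAG in 8 and GAG in 1. The other acceptors were counted as 171 pairs of a junction and an exon end, so a junction with several exon ends recurs. In these the triplet was CAG in 113 (66.1%) at the junction's site and in 47 (27.5%) at the exon's own site. At the exon's own site it was otherwise TAG in 45, AAG in 26 and GAG in 3. The remaining exon ends of the 171 had no AG, so the share at the exon's own site is not of acceptors alone. For comparison, 63.1% of 135888 annotated introns ended in CAG, 28.2% in TAG and 7.3% in AAG. The 17 bases before the triplet were compared in the 119 such pairs over 20 bases apart. Their median share of T was 47.1% at the junction's site and 41.2% at the exon's own site, and in annotated introns it was 47.1%. Exon ends without an AG were not left out of that comparison. These are descriptions of base composition. The use of either site by a given factor was not measured.

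Called junctions carried fewer reads in the heated seeds than in the unheated ones, and fewer in atcyp18-1 than in WT. A call is that of the authors' deposited table: every called exon had a ratio of group means of at least 1.7, an unadjusted p of at most 0.0499 and a library of at least 20 junction reads. For heat in WT, 196 of 208 listed members were called; of all exons with a junction read there, 91.2% were called. For heat in atcyp18-1, 195 of 207 were called, against 90.7% of exons with a read. For atcyp18-1 against WT, 76 of 85 were called in unheated seeds and 81 of 89 in heated seeds, against 83.5% and 85.3% of exons with a read. Since the tables hold only genes with a called exon, these shares say nothing of the members.

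Among called members with a gene count, 170 had fewer junction reads in heated than in unheated WT and 25 had more. In atcyp18-1 the numbers were 186 with fewer reads under heat and 8 with more. Between genotypes, 66 had fewer reads in unheated atcyp18-1 than in unheated WT and 10 had more, and in heated seeds 78 had fewer in atcyp18-1 and 3 had more. Of exons with a junction read, 79.5, 87.0, 72.5 and 82.1% were called lower in these 4 comparisons, in the order heat in WT, heat in atcyp18-1, unheated genotypes and heated genotypes, and 11.6, 3.72, 11 and 3.16% were called higher. The effective library size (the gene-count total times the TMM factor, edgeR's correction for composition) was also lower in each first-named group, with means of 9.17 M in heated and 10.34 M in unheated WT, and 7.29 M in heated and 9.43 M in unheated atcyp18-1. Divided by effective library size, the reads gave the same split in all 4 comparisons.

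Relative to the count of their own gene, the members were lower by less than in reads as counted or scaled to library size. Called members were chosen by a change in these same reads, and most had fewer reads. The directions and medians per gene count thus follow in part from the choice and are a description only. Junction reads per gene count were lower in heated WT for 160 of 195 called members (82.1%), with a median log2 change of -0.59, against -1.24 for the reads as counted. In heated atcyp18-1 they were lower for 163 of 194 (84.0%), with medians of -0.52 and -1.32. Between genotypes they were lower in atcyp18-1 for 64 of 76 members unheated (84.2%, medians -0.57 and -1.0) and for 74 of 81 heated (91.4%, medians -0.55 and -1.07). Part of the gap to the reads as counted is library size. Divided by effective library size, the median was -1.07 for heat in WT and -0.95 for heat in atcyp18-1. Between genotypes it was -0.87 unheated and -0.74 heated. The median member had 67.1 junction reads per 1000 gene counts in heated WT, against 123.2 in unheated WT. It had 71.6 in heated atcyp18-1, against 108.1 in unheated atcyp18-1. The lowest junction count listed anywhere is 6, so a listed 0 may stand for up to 5 reads. With every 0 taken as 5 reads the medians per gene count were -0.52, -0.40, -0.52 and -0.51 in the same order of comparisons, and the same numbers of members were lower.

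Most members changed in the same direction as their gene, whose count includes their reads. Among called members whose gene was tested, junction reads and gene count had the same sign for 177 of 192 under heat in WT and 174 of 191 under heat in atcyp18-1. Between genotypes they had it for 68 of 74 unheated and 66 of 81 heated. The gene itself was called lower (edgeR, adjusted p below 0.05) for 125, 128, 44 and 25 of these members in the same order, and called higher for 28, 12, 10 and 5. Over all 17296 genes tested, 25.1, 23.4, 12.2 and 8.49% were called lower and 25, 22.9, 11.2 and 8.17% higher.

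**Figure D2:**
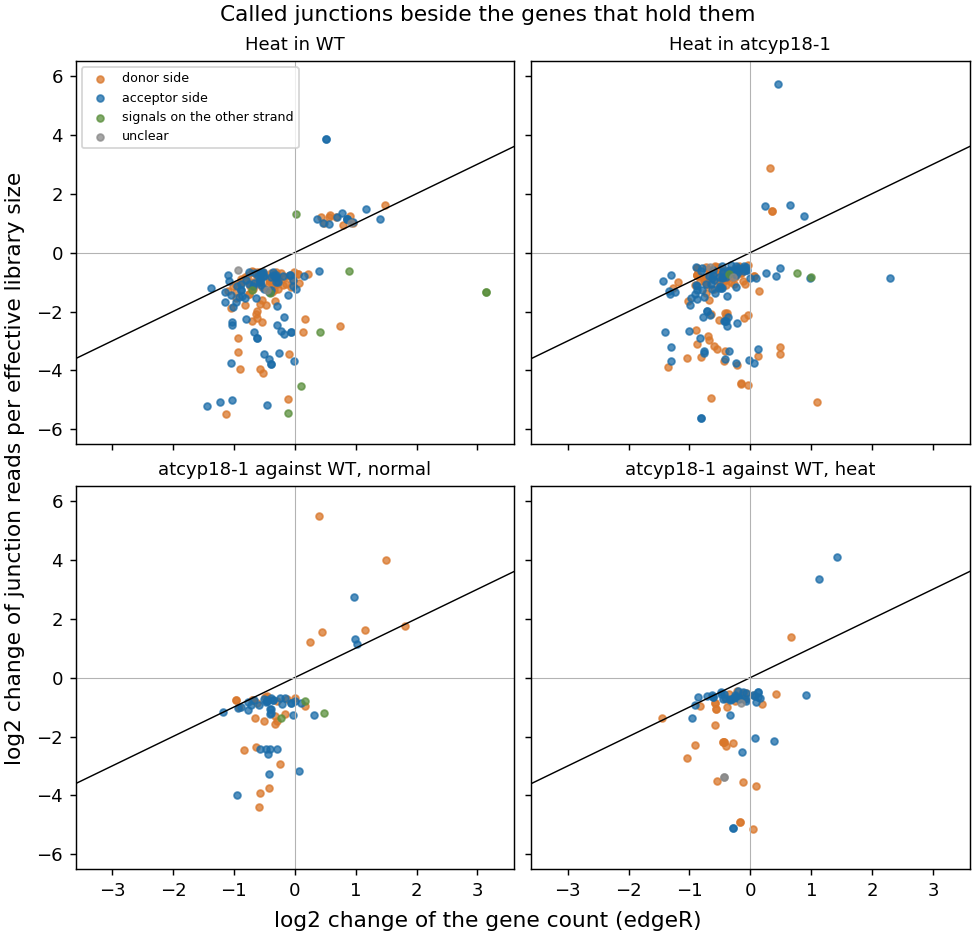
Log2 change of junction reads per effective library size (y axis) against the log2 change of the gene count by edgeR (x axis) for called members, 1 panel per comparison and 1 point per member, coloured by side. Points on the diagonal changed as their gene did; most points lie in the lower left of each panel and below the diagonal.

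Within 2-fold of their gene's own change were 133 of 195 called members for heat in WT, 125 of 194 for heat in atcyp18-1, 48 of 76 between unheated genotypes and 54 of 81 between heated genotypes. Members that moved apart, by at least 2-fold per gene count with groups that did not overlap, numbered 49, 47, 21 and 16; 46, 41, 17 and 16 of them were lower in the first-named group. Of exons with a junction read, 23.8, 23.4, 25.3 and 17.9% met the same rule, so the members' shares are those of the tables. Many of these rest on listed zeros: 30, 34, 12 and 13 had a library at 0 in the lower group, and with 0 taken as 5 reads 41, 32, 16 and 12 stayed past the rule.

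The members that differed most from their gene in heated WT were mostly low in reads. The highest and lowest members named per comparison were picked among those whose groups did not overlap per gene count. Their lack of overlap is therefore part of the choice. ASD1, an alpha-L-arabinofuranosidase, had an acceptor-side junction with 12, 12 and 21 reads in heated WT, against 6, 0 and 0 in unheated WT. All heated libraries were above all unheated ones, while the gene had 244 to 293 counts heated and 145 to 247 unheated. With 0 taken as 5 reads it was higher by 0.99 on the log2 scale per gene count. FBP7, an F-box protein, had a donor-side junction with 20, 18 and 17 reads in heated WT, against 8, 8 and 10 in unheated WT. Its groups did not overlap, as the choice required, and its log2 change per gene count was 0.79 ± 0.13 (SE, n = 3 each). AT1G22660, a polynucleotide adenylyltransferase family gene, had a donor-side junction with 0, 0 and 0 reads in heated WT, against 17, 13 and 23 in unheated WT, while its gene counts of 145 to 173 heated and 171 to 200 unheated differed by less (log2 -0.11, edgeR adjusted p = 0.380). With each 0 taken as 5 reads the junction was lower by at least 1.40 on the log2 scale per gene count.

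In atcyp18-1, some junctions were listed in heated libraries alone and others in unheated ones alone. LEA4-5, a late embryogenesis abundant protein of dry seeds, had an unannotated acceptor-side junction 33 bases into its coding exon (chromosome 5, 2090111 to 2090226) with 77, 90 and 53 reads in heated atcyp18-1, against 0, 0 and 0 unheated. Its acceptor is shown here with the AG in capitals (chr5:2090105-2090130, minus strand).
LEA4-5: agacacgagaccctgttcAGaaacag
The gene itself had 7310 to 10132 counts in heated and 5626 to 5924 in unheated atcyp18-1, so the junction averaged 8.6 ± 2.0 reads per 1000 gene counts in heated atcyp18-1 (SD, n = 3), and per gene count it was higher by at least 3.15 on the log2 scale. AT1G17410, a nucleoside diphosphate kinase family gene, had an annotated acceptor 8 bases into its exon with 30, 15 and 17 reads in heated atcyp18-1, against 0, 0 and 0 unheated. All 3 heated libraries had listed reads and no unheated one did, with 57 to 99 gene counts heated and 64 to 76 unheated, and per gene count the junction was higher by at least 1.82. AT3G27470 had a donor-side junction with 22, 23 and 19 reads in heated atcyp18-1, against 9, 0 and 12 unheated. Its groups did not overlap, as the choice required, and with 0 taken as 5 reads it was higher by 1.37 per gene count.

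The junctions lowest in heated atcyp18-1 were listed at 0 in all its libraries. GBF3, a bZIP factor that binds G-boxes, had a donor-side junction (chromosome 2, 19002162 to 19002321) with 0, 0 and 0 reads in heated atcyp18-1, against 21, 30 and 15 unheated. Meanwhile its gene count was higher, with 615, 322 and 521 in heated atcyp18-1, against 241, 334 and 305 unheated (log2 1.10, edgeR adjusted p = 6.07e-05). The junction was thus lower by at least 2.67 per gene count. VEL1, a VIN3-like partner of polycomb silencing known from vernalization, had an acceptor-side junction 36 bases into a coding stretch (chromosome 4, 14787916 to 14788033; site at chr4:14787910-14787935, minus strand).
VEL1: gagcaatgagatatctgcAGatacag
It had 0, 0 and 0 reads in heated atcyp18-1, against 41, 25 and 30 in unheated atcyp18-1. In WT the same junction kept 15, 21 and 30 reads under heat, against 53, 58 and 65 unheated. The VEL1 gene had 351 to 522 counts in heated atcyp18-1 and 547 to 739 in heated WT. Between heated genotypes the junction was lower in atcyp18-1 by at least 1.35 per gene count, and the gene by 0.29 (edgeR adjusted p = 0.0324). VEL1 was called in all 4 tables. SAC52, described with the heated genotypes, was the third junction named here.

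**Figure D3:**
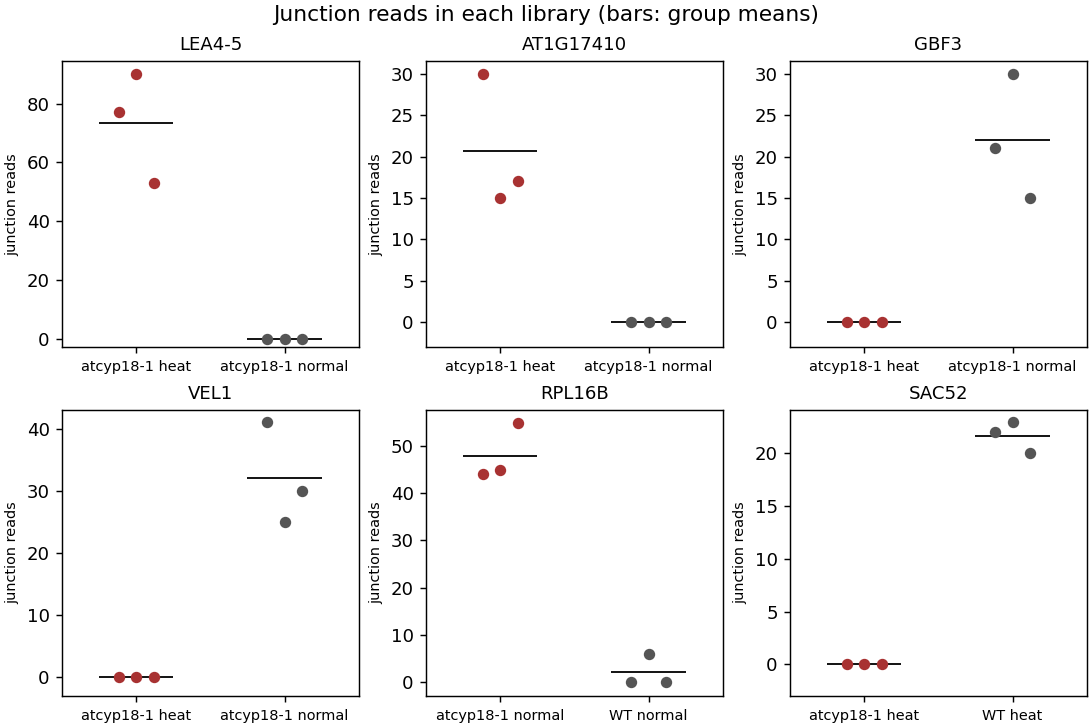
Junction reads in each library (y axis, points; horizontal bars are group means of 3 libraries) for 6 of the named junctions, each in a comparison that named it. The LEA4-5, AT1G17410 and RPL16B junctions had their listed reads in the left-hand group, and the GBF3, VEL1 and SAC52 junctions had theirs in the right-hand group, with 0 in every library of the other except 1 unheated WT library of RPL16B with 6 reads.

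Heat was compared in WT and in atcyp18-1 with no library in common. Of 72 members listed in both heat tables, 69 were called in both and had a gene count. All 69 were called lower under heat in both genotypes, and 61 of 69 (88.4%) had the same direction per gene count. Over these 69, the median junction reads per 1000 gene counts were 69.6, 58.0 and 56.3 in heated atcyp18-1 libraries, against 90.9, 90.5 and 103.8 in unheated ones. In WT they were 74.0, 65.5 and 63.2 heated, against 105.5, 103.5 and 109.3 unheated. Heated and unheated libraries did not overlap in either genotype, and the genotypes overlapped at each temperature. Since the 69 were chosen by lower reads under heat, the lower heated medians and the zeros in heated libraries follow from the choice and are a description only. Between 5 and 10 of the 69 members were listed at 0 in heated atcyp18-1 libraries, 2 or 3 in heated WT libraries and 0 in every unheated library.

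Among shared members, the rule for named members gave GBF3, LHY and VLN3, a choice that rests on zeros counted as 0.5. With 0 taken as 5 reads, LHY and VLN3 were passed by others such as AT4G23015, at -2.14 in WT and -1.71 in atcyp18-1 with no library at 0. That junction is an intron of UTR2 on the other strand, and per count of UTR2 it differed by -0.15 and 0.54. The GBF3 junction had 7, 6 and 0 reads in heated WT, against 14, 19 and 21 in unheated WT, a log2 change per gene count of -3.16 ± 1.63 (SE, n = 3 each), or -2.01 with 0 taken as 5. LHY, a clock MYB factor, had a 5' UTR acceptor 27 bases downstream of the exon's own site. Its reads were 0, 0 and 0 in heated WT, against 18, 23 and 20 in unheated WT, and 19, 9 and 0 in heated atcyp18-1, against 38, 72 and 58 unheated. LHY itself was lower by 1.44 in heated WT (edgeR adjusted p = 1.20e-09), and with 0 taken as 5 the junction differed from its gene by -0.30, so the difference from the gene rests on the zeros. Per gene count the atcyp18-1 groups overlapped.

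VLN3, an actin-bundling villin, had an acceptor 173 bases downstream with 0, 10 and 12 reads in heated WT, against 30, 21 and 23 in unheated WT. In atcyp18-1 it had 7, 11 and 0 reads heated, against 18, 23 and 26 unheated. All heated libraries were below all unheated ones in reads in both genotypes, and per gene count the atcyp18-1 groups overlapped. With 0 taken as 5 the change per gene count was -1.01 in WT and -0.75 in atcyp18-1. The only called member of both tables that was higher per gene count in both belonged to ATCG00670, clpP of the chloroplast genome, for which strand and side were not resolved here. Its junction was higher by 0.33 ± 0.03 in heated WT and by 0.18 ± 0.10 in heated atcyp18-1 (SE, n = 3 each), where the groups overlapped. It also had the most reads of both heat tables, 2738 to 3854 in heated WT and 5199 to 6750 in unheated WT. Of the members that differed in direction, the donor-side junction of AT3G13580 was named by the rule. It had 166, 135 and 195 reads in heated WT, against 375, 330 and 417 unheated, and differed by -0.12 ± 0.12 per gene count, with overlap. In atcyp18-1 it had 192, 139 and 148 reads heated, against 326, 382 and 340 unheated, and differed by 0.11 ± 0.04 without overlap.

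**Figure D4:**
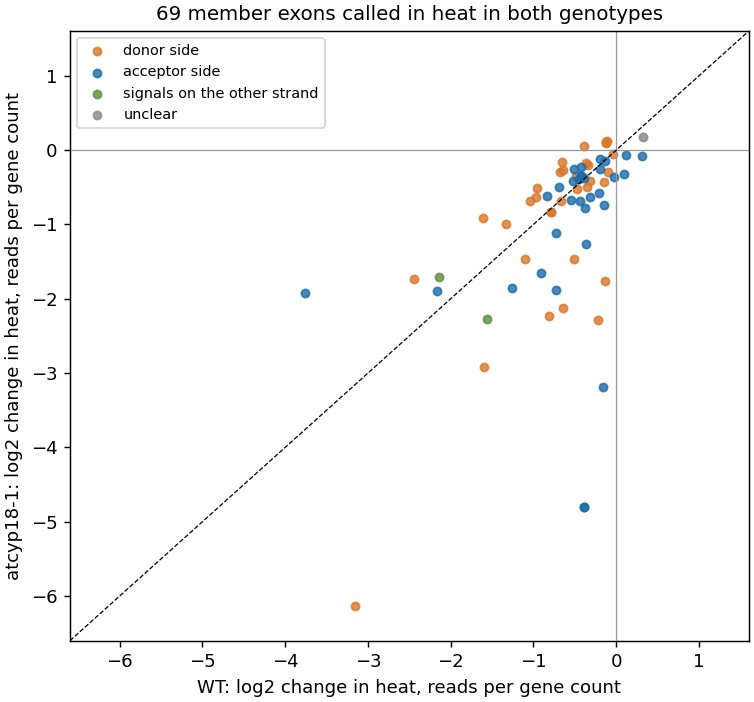
Log2 change with heat in junction reads per gene count in atcyp18-1 (y axis) against WT (x axis) for the 69 member exons called in both heat tables, 1 point each, coloured by side; the dashed line marks equal change. 61 of the 69 points share a sign; points of members with libraries listed at 0, VEL1 and GBF3 among them, were drawn with 0.5 added to the reads, so their distance from 0 depends on that choice.

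In unheated seeds, the junction highest in atcyp18-1 relative to its gene was in RPL16B, a ribosomal protein gene with close copies in the genome, to which reads could also belong. An unannotated donor 24 bases inside a coding exon (chromosome 4, 10302604 to 10302722) had 44, 45 and 55 reads in unheated atcyp18-1, against 0, 6 and 0 in unheated WT. The gene was higher by 0.39 (edgeR adjusted p = 2.01e-04), with 5626 to 7059 counts against 4936 to 6021. Per gene count the junction was higher by 2.80 with 0 taken as 5 reads. AT3G54500, which has LNK2 among its RefSeq synonyms, had an acceptor 14 bases downstream with 15, 28 and 20 reads in unheated atcyp18-1, against 7, 0 and 10 in unheated WT. It had 14, 15 and 23 reads in heated atcyp18-1, against 0, 0 and 8 in heated WT. All atcyp18-1 libraries were above all WT libraries at either temperature in reads; per gene count the heated groups overlapped, and the gene was higher by 0.97 unheated and 1.43 heated. INVH, an invertase, was also named by the rule, but its gene counts were 1 or 2 in all 6 libraries, so its junction reads have no gene level to be read against.

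The junctions lowest in unheated atcyp18-1 were in AT1G33790, RING1B and AT4G19110. AT1G33790, a jacalin lectin family gene, had a donor-side junction with 0, 0 and 10 reads in atcyp18-1, against 19, 42 and 39 in WT. RING1B, a subunit of polycomb complex PRC1, had one with 0, 0 and 8 reads in atcyp18-1, against 21, 16 and 26 in WT. AT4G19110, a protein kinase, had an acceptor 9 bases downstream with 0, 18 and 17 reads in atcyp18-1, against 50, 46 and 66 in WT. None of the 3 overlapped between genotypes, as the choice required. With 0 taken as 5 reads they were lower per gene count by 1.5, 1.03 and 2.09. The genes themselves differed by -0.59 for AT1G33790, -0.57 for RING1B and 0.07 for AT4G19110 (edgeR adjusted p = 2.01e-05, 0.00636 and 0.521).

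In heated seeds, no called member was at least 2-fold higher per gene count in atcyp18-1 without overlap, and 3 of the 16 that were lower were named. SAC52, a ribosomal protein L10 gene that also has close copies, had an unannotated donor 7 bases inside a coding exon (chromosome 1, 4888760 to 4888831) with 0, 0 and 0 reads in heated atcyp18-1, against 22, 23 and 20 in heated WT. Unheated atcyp18-1 had 14, 20 and 10. The same gene had an annotated 5' UTR donor 150 bases into another exon with 1216, 990 and 823 reads in heated atcyp18-1, against 1254, 1065 and 1298 in heated WT; that member was not called, and per gene count it differed by 0.03 ± 0.04 (SE). AT1G61150, a LisH and RanBPM domain gene, had a 5' UTR donor with 0, 0 and 0 reads in heated atcyp18-1, against 18, 16 and 22 in heated WT, at gene counts of 166 to 258 and 298 to 316. With 0 taken as 5 reads, the SAC52 junction was lower by at least 1.71 and the AT1G61150 junction by at least 1.27 per gene count.

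Called members of the closest acceptor pairs were mostly lower per gene count. They were chosen by a change in reads of the same junction, and most called members had fewer reads. The direction thus follows in part from the choice, and these counts are a description only. Per gene count, the downstream NAGNAG acceptor was lower for 16 of 16 called members under heat in WT, with a median of -0.87, and for 15 of 16 under heat in atcyp18-1, with a median of -0.85. It was lower for 9 of 10 in unheated and 10 of 10 in heated atcyp18-1 compared with WT, with medians of -0.57 and -0.58. These counts are of exons, some of which share a junction. All called acceptor-side members were lower for 75 of 91, 80 of 93, 36 of 40 and 37 of 42 in the same order, with medians of -0.54, -0.52, -0.48 and -0.42.

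For AT1G18070 the downstream AG had 77, 72 and 84 reads in heated WT, against 164, 162 and 200 in unheated WT, or 76.4 ± 2.2 and 103.4 ± 6.0 per 1000 gene counts (SD, n = 3 each). In unheated atcyp18-1 it had 82, 100 and 92 reads, or 81.2 ± 7.7 per 1000, and heated 57, 36 and 46, or 63.8 ± 11.3. In these 3 listed comparisons, heat in each genotype and unheated genotypes, the groups did not overlap per gene count. Of exons with a junction read, 53.3% also had no overlap for heat in WT and 42.1% for heat in atcyp18-1. Between genotypes the share was 49.5% unheated and 41.1% heated. The upstream AG, its partner in the sequence above, is not counted in these tables.

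For emb1138, reads of the downstream AG per gene count differed between genotypes at either temperature, and its upstream AG is not counted. The downstream AG had 56, 56 and 52 reads in unheated atcyp18-1, against 135, 94 and 105 in unheated WT. Heated, it had 54, 33 and 38 reads in atcyp18-1, against 78, 61 and 81 in WT. Per 1000 gene counts these were 9.6 ± 0.7 against 17.2 ± 4.0 unheated, and 9.6 ± 1.2 against 14.8 ± 1.1 heated (SD, n = 3 each), and no atcyp18-1 library reached a WT library. The emb1138 gene itself differed by -0.07 unheated and 0.13 heated (edgeR adjusted p = 0.463 and 0.163). NRP2 had 23, 23 and 33 reads in heated WT, against 92, 99 and 133 in unheated WT, which was -0.83 ± 0.18 per gene count (SE). In atcyp18-1 it had 22, 18 and 16 reads heated, against 56, 75 and 46 unheated, or -0.62 ± 0.09. Heated and unheated groups did not overlap, while unheated atcyp18-1 and WT overlapped at 128.2 ± 12.2 and 135.3 ± 18.1 per 1000 (SD, n = 3 each). Lack of overlap, for emb1138 as for NRP2, is common among exons with a junction read, at the shares given with AT1G18070.

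Donors 4 bases apart are given in the same way, as members chosen by a change in their own reads. Of those called, 5 of 6 were lower per gene count in unheated atcyp18-1 than in WT and 4 of 4 in heated atcyp18-1, with medians of -0.52 and -0.47. Under heat 7 of 8 were lower in each genotype, with medians of -0.50 in WT and -0.45 in atcyp18-1. CRU3 and XTH9, those with most reads, overlapped between genotypes once divided by the gene count. The CRU3 junction had 3389, 3011 and 3327 reads in unheated atcyp18-1, against 1376, 698 and 1193 in unheated WT, the most of that table. CRU3 itself was higher by 1.81 (edgeR adjusted p = 5.62e-06), as was the share of the seed markers, of which it is one, and per gene count the junction differed by -0.07 ± 0.05 (SE, n = 3 each). XTH9 had 189, 195 and 150 reads in unheated atcyp18-1, against 339, 341 and 307 in unheated WT. Heated, it had 202, 200 and 134 in atcyp18-1, against 470, 410 and 416 in WT. Both groups of WT libraries stood above atcyp18-1 in reads and overlapped it per gene count, at -0.07 ± 0.08 and -0.12 ± 0.07.

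Junctions with splice signals of the other strand mostly matched introns of overlapping genes. Of the 24 such members, the leading junction of 21 was an annotated intron of the overlapping gene on that strand, and of 3 it was not annotated. The protocol describes no strand-specific step. For 17 called values of 15 of these members with counts of both genes, 3 were within 2-fold of the listed gene and 12 within 2-fold of the gene that has the intron. The median log2 change was -1.60 per count of the listed gene and -0.50 per count of the gene with the intron. BGLU47, a beta-glucosidase, shows the difference. Its junction had 9, 16 and 20 reads in heated WT, against 43, 48 and 35 in unheated WT, with only 16 to 17 counts heated and 1 to 4 unheated of BGLU47 itself, a change of -4.91. The intron is that of AT4G21770, which had 178, 196 and 203 counts in heated WT, against 346, 336 and 322 in unheated WT, a change of -0.71.

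The junction named for AT1G48160, a signal recognition particle gene, was of this kind too. It had 85, 75 and 104 reads in heated WT, against 27, 49 and 46 in unheated WT, which was 1.29 per its own count and 0.31 per count of AT1G48170, the gene with the intron. The junction named for AK-LYS1, an aspartate kinase, was lower than either gene. It had 0, 0 and 0 reads in heated WT, against 28, 19 and 26 in unheated WT. The intron belongs to CRN, a kinase-like protein of meristem signalling, which had 81, 87 and 75 counts in heated WT, against 138, 116 and 194 in unheated WT.

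**Figure D5:**
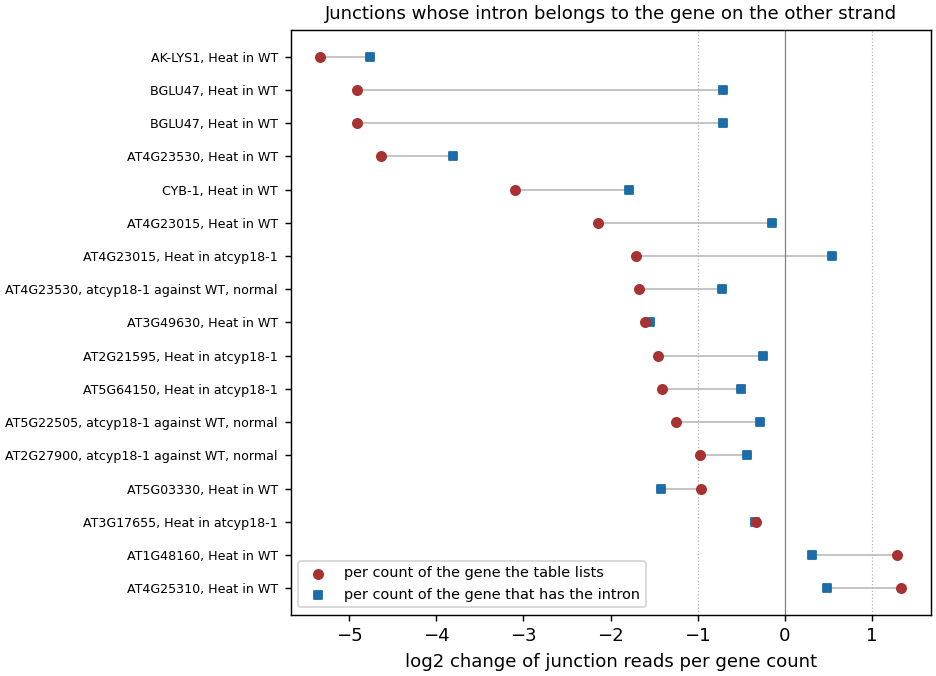
Log2 change of junction reads per gene count (x axis) for 17 called values of members whose junction is an intron of the gene on the other strand, 1 row per member and comparison; circles divide by the count of the listed gene and squares by the count of the gene that has the intron. Dotted lines mark a 2-fold change; 3 circles and 12 squares lie between them.

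Some of the same introns were also called as retained. The deposited intron retention tables give a ratio of intron reads to exon reads per library. Of 180 distinct junctions of members called for heat in WT, 14 were introns called there, and the ratio was higher in heated WT for all 14. For heat in atcyp18-1 it was 9 of 181, again all higher. These tables list called introns only, so no share of all measured introns can be set beside these counts. Between genotypes it was 1 of 71 unheated and 3 of 72 heated, each higher in atcyp18-1. Over all called introns of those tables, 92.8, 82.2, 97.9 and 74.8% were higher in the first-named group, in the same order. VLN3 was among those of both heat tables, with ratios of 1.14, 0.80 and 0.667 in heated WT, against 0.237, 0.143 and 0.388 in unheated WT, and 0.960, 0.895 and 1.00 in heated atcyp18-1, against 0.323, 0.231 and 0.469 unheated. Heated and unheated ratios of VLN3 did not overlap. The intron was called on these same ratios, so the lack of overlap follows in part from the choice. The FKBP53 intron, of a nuclear immunophilin, was also called in both heat tables. It had ratios of 0.218, 0.276 and 0.286 in heated WT, against 0.0969, 0.064 and 0.0446 in unheated WT. In atcyp18-1 the ratios were 0.429, 0.386 and 0.472 heated, against 0.0741, 0.0816 and 0.105 unheated.

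Genes of the members were also tested in libraries other than those that called them. Genes listed for the tested libraries' own comparison were left out, so the sets depend on those libraries too. Genes called in the WT heat table and not listed in the atcyp18-1 heat table numbered 111. Of 108 tested, 63 (58.3%) changed with heat in atcyp18-1 (21 higher, 42 lower; edgeR, adjusted p below 0.05), against 46.3% of all genes. In the other direction, 66 of 110 (60.0%) changed with heat in WT (11 higher, 55 lower), against 50.1%. Genes of the unheated genotype table changed between heated genotypes in 23 of 52 (44.2%; 10 higher, 13 lower), against 16.7%. Genes of the heated genotype table changed between unheated genotypes in 23 of 55 (41.8%; 6 higher, 17 lower), against 23.4%. The median level of these 4 sets, scaled to library size as CPM, was 24.4 to 28.6, against 13.6 for all genes, and its part in the shares was not tested. Without 1 library the genotype shares could be as low as 28.8% (without heated WT replicate 2) and 21.8% (without unheated atcyp18-1 replicate 3 or unheated WT replicate 1). The shares of all genes without those libraries are not given here. These lows can therefore not be set against 16.7 and 23.4%, which are from all 12 libraries.

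Genes of splice site recognition and of the spliceosome were called more often with heat than between genotypes, as were all genes. Of all genes, 50.1 and 46.3% were called with heat in WT and in atcyp18-1, and 23.4 and 16.7% between unheated and between heated genotypes. The acceptor list of 18 genes holds factors that recognise the acceptor and also general parts of the spliceosome. Of these 18, 3 rose and 12 fell with heat in WT, and 3 rose and 11 fell in atcyp18-1 (edgeR, adjusted p below 0.05). Their median log2 change was -0.44 and -0.35, against 0.00 for all genes. BRR2A, the helicase that unwinds the U4/U6 pair, fell by 1.14 in WT and by 1.29 in atcyp18-1. PRP8, the core of the spliceosome, fell by 0.53 and by 0.73. SF1, the branch point binding protein, rose by 0.44 and 0.35, and the U2AF gene U2AF65B by 0.20 and 0.43. Also called higher were U2AF35A in WT, by 0.37, and U2AF65A in atcyp18-1, by 0.25. U2AF35B fell by 0.34 in atcyp18-1 and was not called in WT. Between genotypes, 4 rose and 2 fell in unheated atcyp18-1, where U2AF35A, the subunit that binds the AG, rose by 0.62 (adjusted p = 2.17e-04). In heated atcyp18-1 3 rose and 1 fell.

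Of 20 SR genes, whose proteins recruit the spliceosome to exons, 11 rose with heat in WT and 10 in atcyp18-1, and 8 and 9 were higher in atcyp18-1 unheated and heated; none was called lower in any of the 4. Their medians were 0.39, 0.26, 0.24 and 0.23, in the same order. Of 16 heat-responsive genes, 13 rose and 2 fell in heated WT, 14 rose and 1 fell in heated atcyp18-1, 3 were lower in unheated atcyp18-1 and 12 higher in heated atcyp18-1 than in WT. SR30 rose by 1.29 in heated WT and by 1.47 in heated atcyp18-1. The genotype calls of the acceptor and SR lists together depended on single libraries. Between heated genotypes they numbered 13, but 2 without atcyp18-1 replicate 1, 5 without its replicate 3, 7 without WT replicate 1 and 4 without WT replicate 2. Between unheated genotypes they numbered 14, but 8 without atcyp18-1 replicate 3. The shares of all genes called without those libraries are not given here. The members in genes of these 3 lists were MAC3A and SKIP, both parts of complexes that act with the spliceosome. MAC3A had a donor 6 bases inside its exon with 38, 19 and 28 reads in heated atcyp18-1, against 65, 55 and 58 unheated. SKIP had a 5' UTR acceptor with 61, 39 and 59 reads in heated atcyp18-1, against 100, 162 and 114 unheated. Each had fewer reads in every heated library. Both genes fell, MAC3A by 0.61 and SKIP by 0.62 (edgeR adjusted p = 4.37e-06 and 2.49e-06), and per gene count the groups overlapped, with -0.11 ± 0.18 and -0.23 ± 0.19 (SE, n = 3 each).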

How the data were processed

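The libraries of polyadenylated RNA were grouped by their titles, 3 per group. The submitters' processing notes name HTSeq and DESeq without versions; aligner, build and splicing caller are not stated in any source used here. The authors deposited raw counts per transcript and counts of junction reads per exon, per the file headers. The lowest deposited gene count is 1, so the values appear to be reads plus 1. The authors' ratio and p-value per junction compare reads unscaled for depth. The deposited intron retention values are a ratio of intron to exon reads. In 23 cells the separators between junction counts were lost, and digits were split to fit the total; 2 could not be split.

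One transcript per gene was used. Genes were tested with edgeR 4.0.16 in R 4.3.3 (TMM, filterByExpr, quasi-likelihood F test, 1 model of 4 group means over 12 libraries), with Benjamini-Hochberg adjustment over the 17296 of 23337 genes that passed the filter; the script was tested on simulated data. Change per gene count is the mean of log2((junction reads + 0.5) / gene count) in the first-named group minus that in the other. The 648 library values found in several tables were equal. Introns, names and bases came from TAIR10.1 (NCBI RefSeq). Alternatives were DESeq2 1.42.0, other scalings, filters, read minima and folds, a replicate block, and each library left out.

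Members and lists were chosen with earlier results of these data known. Named per table were the 3 members highest and the 3 lowest per gene count among those without overlap and with a mean of at least 10 reads in the higher group, and the member with most reads. Also named were the members of both heat tables with most change in the same direction (3 each way) or in opposite directions, members in the acceptor, SR and heat lists, and the 3 NAGNAG pairs with most reads. XTH9, the retained introns, the other-strand comparison, and the limit of the gene follow-up to genes not listed in the other table were chosen after values were seen.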

Additional observations from a re-analysis of the deposited data

How the results depend on the processing

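The 22 shares and counts behind the comparisons were recomputed under alternatives, giving 316 values, of which 301 stayed within 1.5 times the main value. With 1.5-fold in place of 2-fold, the share within that fold of the gene was 45.1% for heat in WT and 42.1% for unheated genotypes, and the share apart from the gene was 43.6% for heat in WT, 46.1% for unheated and 34.6% for heated genotypes, as a narrower limit must give. The 5 and 20 read minima left the shares of called members as they were, since every called member had a library of at least 20 reads. Leaving out 1 library gave 28.8 to 46.2% for genes of the unheated genotype table, 21.8 to 43.6% for genes of the heated genotype table, 8 to 15 calls of splicing genes between unheated genotypes and 2 to 13 between heated genotypes. For heated genotypes these splicing genes numbered 5 with no filter on low counts and 6 by DESeq2, against 13. The shares of all genes called under these settings, or without 1 library, are not given here. Whether calls fell alike for all genes can thus not be read from these counts, and the cause was not tested. Scaling by raw reads or library size was run only for directions, since the other shares are defined by the gene count.

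The replicate block changed no count by over 1.5 times: with it 57.4, 62.7, 42.3 and 45.5% of the 4 gene sets were called, and 26, 25, 15 and 13 splicing genes. Same-numbered libraries correlated in their deviations at -0.0864 to 0.105 and others at -0.182 to 0.176, so the numbers are not taken to pair the libraries. The acceptor side alone, distinct junctions and listed zeros as 5 reads were added after seeing the data.

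Depth limits these results most where junctions had few reads: listing starts at 6, all folds against 0 are bounds, and each comparison has 3 libraries per group.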
